A study of Mus musculus with 8 samples.

Results

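The tumor necrosis factor (TNF) superfamily and its receptors were followed in RNA-seq of mouse regulatory T cells (Tregs) that were differentiated in culture with or without oxPAPC. Its members were taken from the deposited gene table by name: protein-coding genes whose symbol begins with Tnfsf or Tnfrsf, together with Fas, Fasl, Cd27, Cd40, Cd40lg, Cd70, Lta, Ltb, Ltbr, Tnf, Traf1, Traf2, Traf3, Traf5 and Traf6. The rule found 41 of the 19330 genes in the table, of which 39 passed the count filter and were tested. The 2 others, Ltbr and Tnfsfm13, had at most 8 and 9 counts in a library. Other genes share 78.1% of the exon bases of Tnfsfm13, among them Tnfsf12 and Tnfsf13 on the same strand. Its counts are uncertain where reads could be shared. GENCODE M21 holds 6 further genes that meet the rule, Tnfrsf11b, Tnfrsf17, Tnfrsf19, Tnfsf12, Tnfsf13 and Tnfsf18. They have no row in the deposited gene table and were therefore not analysed here.

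The study compared 4 libraries of oxPAPC-treated Tregs with 4 libraries of control Tregs, asking how oxPAPC alters these cells. Both groups were polarized for 3 days from naive CD4+ T cells of B6 mouse spleen, and differed in the labels by treatment alone. oxPAPC is a mixture of oxidized phospholipids obtained by oxidation of PAPC, a phosphatidylcholine. Dose, age, sex and any vehicle of the controls are not given in the sources used here, nor whether replicates were separate mice or cultures, so that p-values measure the spread between these libraries, which may be technical.

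Ligands of the TNF superfamily are mostly trimeric membrane proteins, some of which are shed, and their receptors cluster around them on the responding cell. Receptors with a death domain, such as Fas, can start cell death through caspases. Receptors without one bind TRAF adaptors and lead to NF-kB and kinase signalling, and several of them, among them OX40 (Tnfrsf4), GITR (Tnfrsf18) and CD137 (Tnfrsf9), are costimulatory receptors that are abundant on Tregs.

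Library totals ran from 14017583 to 21619731 counts. The noncoding gene Gm26917 took 9.35% to 19.4% of the counts of oxPAPC libraries and 8.59% to 29.1% of those of control libraries, with the highest share in control replicate 2. T cell and Treg markers were present and did not pass the test (0 of 4 and 0 of 5). Among markers of other cells, 1 of 2 tested was higher for CD8 T cells (Cd8a) and 1 of 2 for natural killer cells (Klrk1). For plasma cells it was also 1 of 2 (Ighg1), and none of these markers was called lower. Of all tested genes, 6.75% were called higher. The partner markers Cd8b1 and Tyrobp did not pass, with log2 fold changes of 0.09 and 0.17 (edgeR adjusted p of 0.84 and 0.867). The other plasma cell marker, Sdc1, had a log2 fold change of -1.04, with all oxPAPC libraries below all control libraries (edgeR adjusted p = 0.0531). Their part in the results was not tested. Foxp3, the Treg lineage factor, averaged 145 ± 52.1 CPM in oxPAPC and 154 ± 34.1 CPM in control libraries (SD, n = 4 each). CPM are counts relative to the library total after TMM scaling, a correction of that total. Values below are bulk RNA levels, in which fewer cells of a type and less RNA per cell cannot be told apart.

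Ligand genes made up the largest group of members that were higher with oxPAPC, and the few members that were lower were receptors. With edgeR (quasi-likelihood F test, p adjusted by Benjamini-Hochberg over all 16434 tested genes, threshold 0.05), 12 of the 39 tested members were higher and 3 were lower in oxPAPC libraries. Of all tested genes, 6.75% were called higher and 6.52% lower. The higher members were 7 of 14 tested ligands (Lta, Tnf, Tnfsf9, Tnfsf11, Tnfsf10, Tnfsf8 and Fasl) and 5 receptors (Tnfrsf8, Tnfrsf11a, Cd40, Tnfrsf9 and Tnfrsf4). These 5 were among 12 tested receptors without a death domain, not counting a cluster on chromosome 7 that holds Tnfrsf26. The lower members were Tnfrsf26 and the death domain receptors Fas and Tnfrsf1a. The median log2 fold change, oxPAPC over control, was 0.76 over 14 tested ligands and 0.19 over 5 TRAF adaptors, against -0.01 over all tested genes. Among receptors it was 0.25 over 5 with a death domain and 0.47 over the 12 without one. The 3 receptors of the chromosome 7 cluster were grouped apart by position and had a median of -0.06. Of these, Tnfrsf22 and Tnfrsf23 lack a death domain too, so the 12 are not all receptors of that kind. Tnfrsf26, the lower member of this cluster, was not placed in either class here. Over all 20 tested receptors, 5 were called higher and 3 lower. In 17 of the 39 tested members every oxPAPC library lay above every control library, and in 4 every one lay below. The same held for 9.5% and 9.86% of all tested genes. When library totals were used without TMM, the median of all genes was 0.12, 71.6% of all calls were higher, against 50.9% with TMM, and the members called were 13 higher and 1 lower, Tnfrsf26. Without control replicate 2, 12 of the 15 calls remained, and those of Fasl, Tnfrsf9 and Tnfrsf1a were lost.

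**Figure D1:**
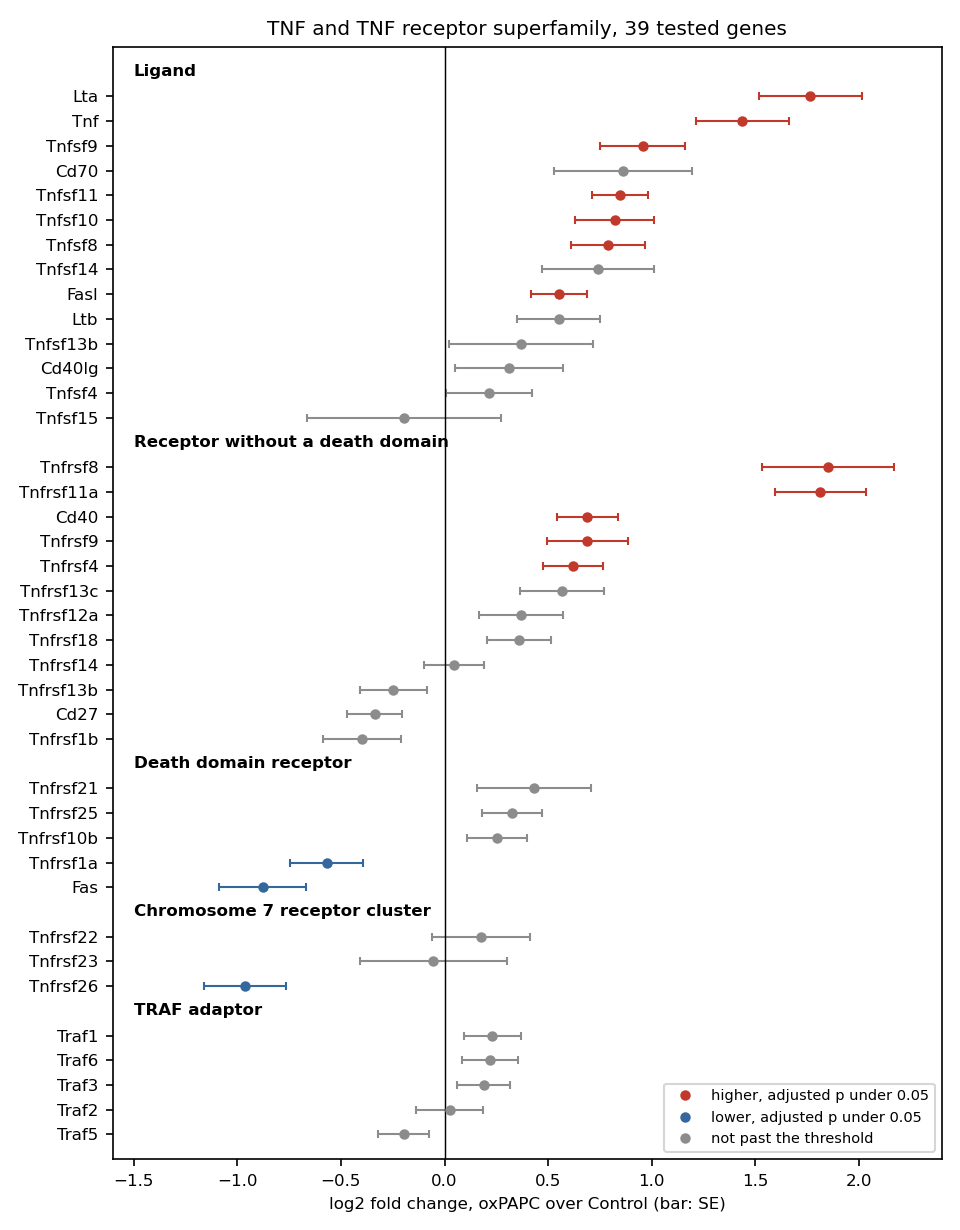
Log2 fold change of the 39 tested members, oxPAPC over control, grouped by role. Points are edgeR estimates and bars their standard errors (4 libraries per group); red points are higher and blue points lower at an adjusted p under 0.05. The 7 red ligands run from 0.55 (Fasl) to 1.76 (Lta), and the 3 blue points are receptors.

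Lta and Tnf, which encode lymphotoxin alpha and TNF, were higher with oxPAPC and lie side by side on mouse chromosome 17 with Ltb, the gene of lymphotoxin beta. In GRCm38 coordinates Ltb spans 35194439 to 35196320, Tnf 35199381 to 35202007 and Lta 35203165 to 35205351, with gaps of 3.1 and 1.2 kb between them. Their promoter windows, from 250 bases before to 50 after the transcription start, are shown because the genes are neighbours with unequal changes. The sequences are those of RefSeq on GRCm38.p6, each read 5′ to 3′ on the strand of its gene. Capitals mark the letters of 4 searched motifs: the 10-letter NF-kB consensus, the AP-1 site TGANTCA, the STAT site TTCNNNGAA (GAS) and the TATA box TATAAA, on either strand.
Lta, chr17:35205302-35205601, minus strand: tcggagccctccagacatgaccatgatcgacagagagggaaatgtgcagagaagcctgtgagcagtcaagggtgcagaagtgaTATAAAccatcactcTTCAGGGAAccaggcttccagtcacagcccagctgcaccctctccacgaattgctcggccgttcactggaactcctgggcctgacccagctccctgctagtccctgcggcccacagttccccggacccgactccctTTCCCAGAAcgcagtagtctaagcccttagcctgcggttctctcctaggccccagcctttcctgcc
Tnf, chr17:35201958-35202257, minus strand: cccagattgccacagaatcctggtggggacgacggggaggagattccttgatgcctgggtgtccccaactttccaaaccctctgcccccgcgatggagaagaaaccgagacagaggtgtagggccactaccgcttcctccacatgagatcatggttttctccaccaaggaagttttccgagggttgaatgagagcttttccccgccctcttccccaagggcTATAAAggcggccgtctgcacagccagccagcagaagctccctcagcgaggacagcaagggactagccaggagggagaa
Ltb, chr17:35194257-35194556, plus strand: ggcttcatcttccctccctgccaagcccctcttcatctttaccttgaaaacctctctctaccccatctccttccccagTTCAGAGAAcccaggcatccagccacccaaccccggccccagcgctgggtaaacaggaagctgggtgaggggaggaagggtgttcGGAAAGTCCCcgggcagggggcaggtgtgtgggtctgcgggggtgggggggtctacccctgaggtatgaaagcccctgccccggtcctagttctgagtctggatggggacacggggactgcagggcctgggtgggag
The Tnf window holds TATAAA at position -29 from the start and no match to the 3 others. The Lta window holds TATAAA at -167 and TTCNNNGAA at -152 and -16. In the Ltb window the NF-kB consensus was found at -87 on the opposite strand and TTCNNNGAA at -172. These are letter matches, not measured binding sites, and a window without a match says nothing about a factor. Of all 32851 windows in the table, 8.46% hold the NF-kB consensus, 7.81% TGANTCA, 8.3% TTCNNNGAA and 13.6% TATAAA.

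Lta (ENSMUSG00000024402.5) had 166, 122, 266 and 238 CPM in oxPAPC replicates 1 to 4, against 62.0, 38.2, 61.0 and 72.2 CPM in control replicates 1 to 4. The lowest oxPAPC library lay above the highest control library, and the oxPAPC libraries were spread more widely, with an SD of 66.1 CPM against 14.4 CPM. Its log2 fold change was 1.76 ± 0.25 (SE, edgeR adjusted p = 0.000486), a fold of 3.40. Tnf (ENSMUSG00000024401.14) had 36.9, 34.4, 53.4 and 56.3 CPM in oxPAPC libraries, against 17.4, 9.73, 19.7 and 19.9 CPM in control libraries. The groups did not overlap, and replicates 3 and 4 were the highest for both genes among oxPAPC libraries. The log2 fold change of Tnf was 1.44 ± 0.22 (SE, edgeR adjusted p = 0.000949).

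Ltb, whose product anchors lymphotoxin alpha at the membrane in a heterotrimer, did not pass. It had 153, 129, 209 and 140.3 CPM in oxPAPC libraries, against 98.9, 132, 76.6 and 124 CPM in control libraries, so that oxPAPC replicate 2 fell within the control range. Its log2 fold change was 0.55 ± 0.20 (SE, edgeR adjusted p = 0.084), and it passed with scaling by library size alone (adjusted p = 0.0377). Per length of exon, the level of Lta was 1.04 to 1.86 times that of Ltb in oxPAPC libraries, against 0.317 to 0.873 times in control libraries. In every oxPAPC library Lta therefore exceeded Ltb per length, and in every control library it was below it. This ratio and those below were chosen after the values were seen and were not tested.

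The receptors that bind TNF and soluble lymphotoxin alpha went the other way or did not pass. Tnfrsf1a encodes TNFR1, the death domain receptor of TNF, and had 10.6, 12.9, 17.7 and 14.0 CPM in oxPAPC libraries, against 17.4, 23.7, 17.96 and 23.1 CPM in control libraries. The groups overlapped, since oxPAPC replicate 3 lay above control replicate 1. Its log2 fold change was -0.57 ± 0.18 (SE, edgeR adjusted p = 0.0481), a call close to the threshold that was lost with RLE scaling (0.0619), with DESeq2 (0.0621) and with 6 of the 8 libraries left out in turn (up to 0.14). Tnfrsf1b, the gene of TNFR2, which is abundant on Tregs, did not pass. It had 119, 116, 181 and 127.5 CPM in oxPAPC libraries, against 150.04, 217, 151 and 199 CPM in control libraries, a log2 change of -0.40 ± 0.19 (SE; adjusted p by edgeR 0.183). It passed without oxPAPC replicate 3, the highest of its group (log2 fold change -0.57, adjusted p = 0.0402). Per length, Tnf was at 0.688 to 1.03 times the level of Tnfrsf1b in oxPAPC libraries and at 0.105 to 0.305 times in control libraries. Ltbr, the receptor of the lymphotoxin heterotrimer, was below the count filter, with 4, 8, 5 and 6 counts in oxPAPC libraries and 1, 3, 6 and 5 counts in control libraries. The authors' deposited table gives it a log2 fold change of 0.73 (adjusted p = 0.561).

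**Figure D2:**
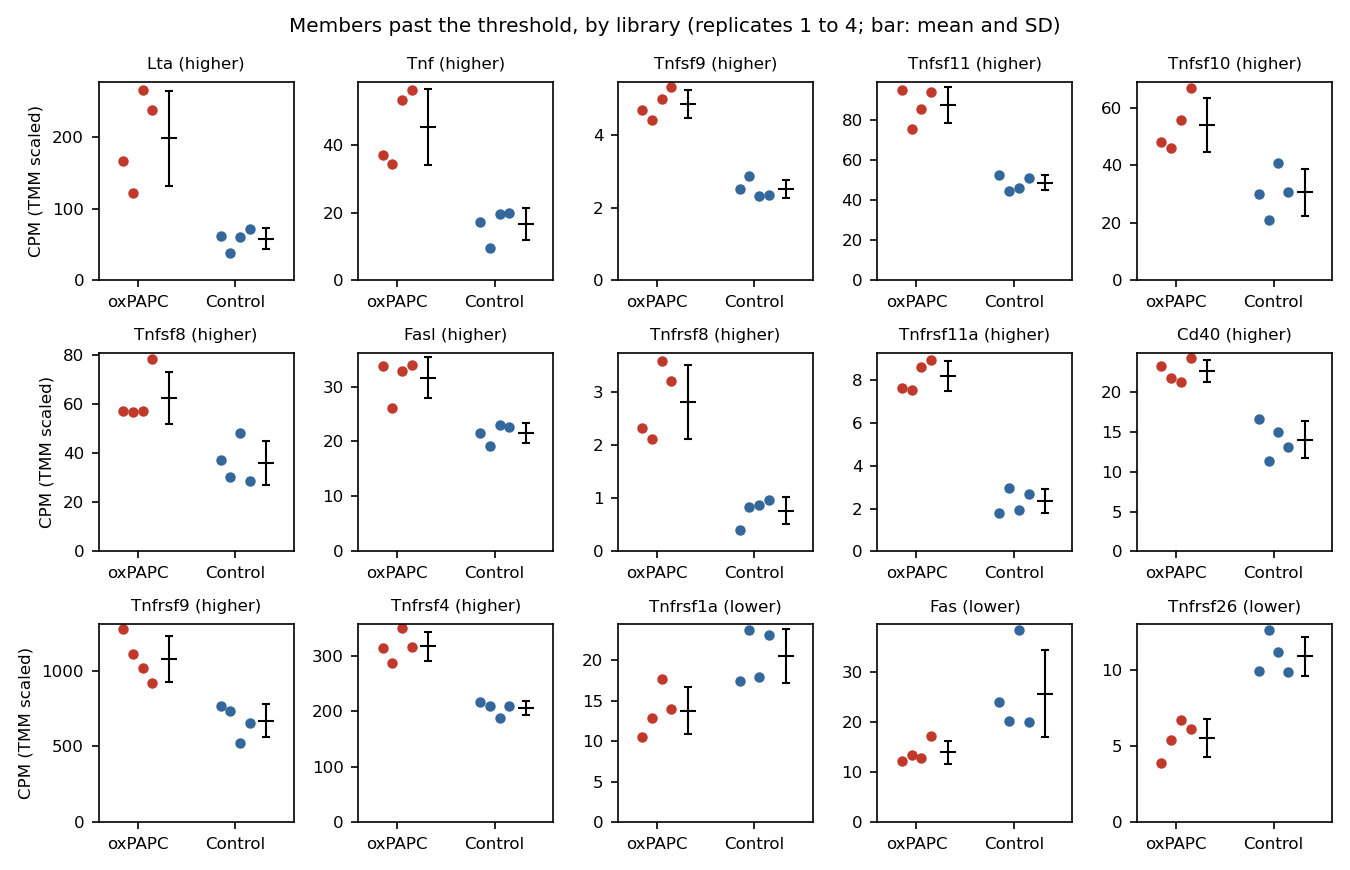
CPM after TMM scaling of the 15 members past the threshold, one panel per gene, with a point for each of 4 oxPAPC (red, left) and 4 control (blue, right) libraries and a black bar for the mean and SD. In 14 panels the groups do not overlap; in the panel of Tnfrsf1a they do.

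Fasl was higher and Fas lower, so the death ligand and its receptor moved in opposite directions. Fasl, on chromosome 1 between positions 161780689 and 161788495, encodes Fas ligand, with which activated T cells kill cells that carry Fas. It had 33.7, 26.05, 32.8 and 33.9 CPM in oxPAPC libraries, against 21.5, 19.1, 23.0 and 22.6 CPM in control libraries. The groups did not overlap, with oxPAPC replicate 2 the lowest of its group. The log2 fold change was 0.55 ± 0.14 (SE, edgeR adjusted p = 0.0158), and the call was lost without oxPAPC replicate 1 or 4 or control replicate 2 (adjusted p up to 0.0588). Fas, on chromosome 19 between positions 34290666 and 34327772, had 12.3, 13.5, 12.8 and 17.2 CPM in oxPAPC libraries, against 24.01, 20.2, 38.3 and 19.9 CPM in control libraries. All oxPAPC libraries lay below all control libraries, and control replicate 3 was the highest.

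The log2 fold change of Fas was -0.88 ± 0.21 (SE, edgeR adjusted p = 0.013). Leaving out control replicate 3 kept the call, with a log2 fold change of -0.61, whereas scaling by library size alone lost it (adjusted p = 0.0674). In the authors' deposited table the log2 fold change of Fas is -0.84 and no adjusted p is given. The DESeq2 fit made here on the same counts gave -0.84 and passed (adjusted p = 0.00309). Per length, Fasl was at 2.06 to 2.92 times the level of Fas in oxPAPC libraries, against 0.640 to 1.21 times in control libraries. The promoter window of Fas is shown as that of a member that was lower.
Fas, chr19:34290409-34290708, plus strand: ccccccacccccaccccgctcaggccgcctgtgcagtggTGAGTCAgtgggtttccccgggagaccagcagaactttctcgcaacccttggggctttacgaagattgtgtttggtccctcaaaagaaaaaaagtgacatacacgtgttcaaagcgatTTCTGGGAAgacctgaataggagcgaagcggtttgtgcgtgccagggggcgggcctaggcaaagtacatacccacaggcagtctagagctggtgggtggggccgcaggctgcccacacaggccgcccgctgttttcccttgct
It holds TGANTCA at position -211 and TTCNNNGAA at -93. TTCNNNGAA was also in the window of Tnfrsf1a, the only other lower member with a window, and in those of 2 of 10 higher members (Lta and Tnfrsf9) and of 4 of 19 members not called (Ltb, Tnfrsf18, Tnfrsf1b and Tnfrsf25).

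The other death domain receptors did not pass. Tnfrsf10b, the mouse receptor of TRAIL, had 17.1 to 25.7 CPM in oxPAPC and 17.6 to 19.2 CPM in control libraries, with a log2 fold change of 0.25 (edgeR adjusted p = 0.285). Its ligand gene Tnfsf10 was higher, with 47.9, 46.1, 55.6 and 66.8 CPM in oxPAPC libraries, against 30.1, 20.8, 40.8 and 30.5 CPM in control libraries (log2 fold change 0.82 ± 0.19, SE, edgeR adjusted p = 0.0116). Every oxPAPC library lay above every control library for Tnfsf10. For Tnfrsf25, which encodes the T cell receptor of Tnfsf15, the oxPAPC libraries at 33.5 to 39.2 CPM also lay above the control libraries at 22.7 to 33.2 CPM, but the difference of 0.33 on the log2 scale did not pass (edgeR adjusted p = 0.156). Tnfsf15 itself had only 4 to 30 counts in a library. Tnfrsf21 (death receptor DR6) was near 1 CPM, with 1.37 to 1.64 CPM in oxPAPC and 0.83 to 1.24 CPM in control libraries (edgeR adjusted p = 0.345).

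Tnfrsf26, Tnfrsf22 and Tnfrsf23 lie next to each other on chromosome 7, with gaps of 6.1 and 16.1 kb, and Tnfrsf26 alone of the 3 was called. Tnfrsf22 and Tnfrsf23 encode mouse decoy receptors of TRAIL, which bind the ligand without a death domain. Tnfrsf26 (positions 143607659 to 143628722) had 3.88, 5.42, 6.71 and 6.14 CPM in oxPAPC libraries, against 9.91, 12.6, 11.2 and 9.84 CPM in control libraries. All oxPAPC libraries were below all control libraries, and the log2 fold change was -0.96 ± 0.20 (SE, edgeR adjusted p = 0.0056). Tnfrsf22 had 4.63 to 9.002 CPM in oxPAPC and 4.52 to 6.53 CPM in control libraries (log2 fold change 0.17, edgeR adjusted p = 0.689). Tnfrsf23 was under 1 CPM in every library (log2 fold change -0.06, edgeR adjusted p = 0.944), and its sign turned with library size scaling, limma-voom and some libraries left out. Values of close paralogs such as these are uncertain where reads could be shared.

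For 3 ligand and receptor pairs, both partners were higher with oxPAPC: RANKL and RANK (Tnfsf11 and Tnfrsf11a), CD30 ligand and CD30 (Tnfsf8 and Tnfrsf8), and CD137 ligand and CD137 (Tnfsf9 and Tnfrsf9). Of 16 pairs examined, a higher ligand stood beside a lower receptor in 3 (Tnf and Lta with Tnfrsf1a, Fasl with Fas) and beside a receptor that did not pass in 3 (Tnf and Lta with Tnfrsf1b, Tnfsf10 with Tnfrsf10b). A higher receptor stood beside a ligand that did not pass in 2 (Tnfrsf4 with Tnfsf4, Cd40 with Cd40lg), and neither partner passed in 5.

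**Figure D3:**
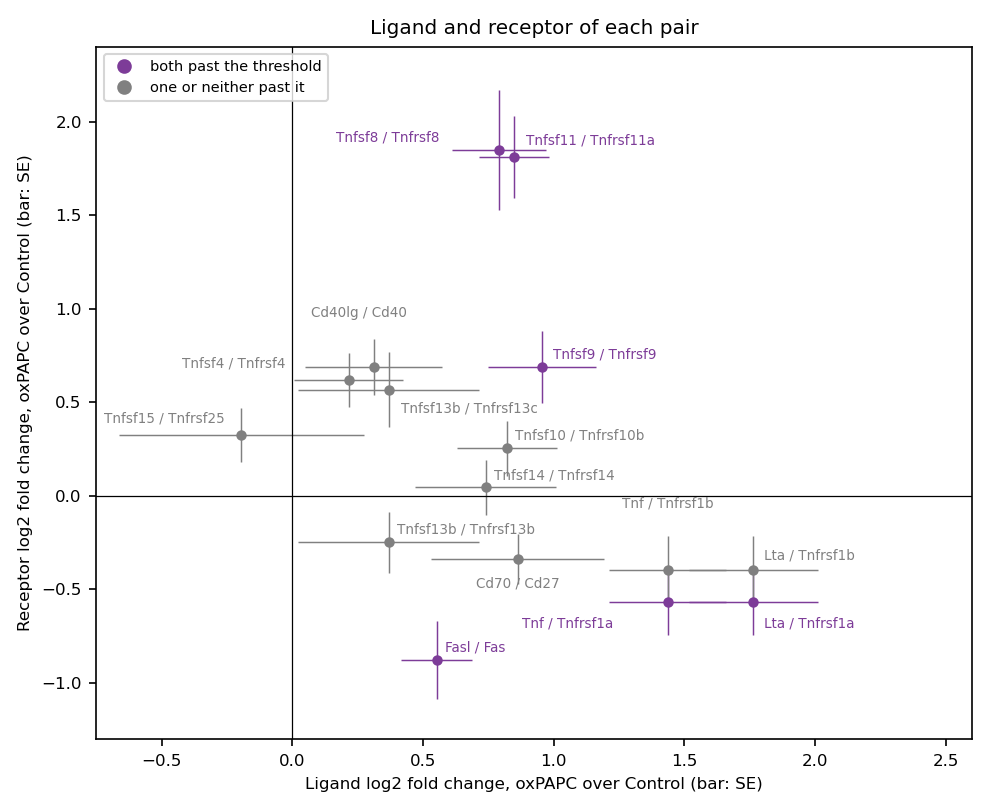
Log2 fold change, oxPAPC over control, of the ligand (x axis) and of the receptor (y axis) for 16 pairs, with standard errors as bars. Pairs with both partners past the threshold are purple: Tnfsf8, Tnfsf9 and Tnfsf11 with their receptors lie upper right, and Tnf and Lta with Tnfrsf1a and Fasl with Fas lie lower right.

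RANKL is best known for driving osteoclast formation, and T cells make it on activation. Tnfsf11, on chromosome 14 between positions 78277445 and 78308043, had 95.2, 75.6, 85.6 and 93.9 CPM in oxPAPC libraries, against 52.8, 44.8, 46.1 and 51.0 CPM in control libraries. The groups were well apart and the spread within each was small (log2 fold change 0.85 ± 0.13, SE, edgeR adjusted p = 0.000997). Tnfrsf11a, its receptor gene, had the smallest adjusted p among the members. It had 7.61, 7.54, 8.605 and 8.93 CPM in oxPAPC libraries, against 1.80, 2.94, 1.92 and 2.67 CPM in control libraries (log2 fold change 1.81 ± 0.22, SE, edgeR adjusted p = 0.000156). Per length, Tnfsf11 was at 26.6 to 33.5 times the level of Tnfrsf11a in oxPAPC libraries and at 40.8 to 78.7 times in control libraries. RANK is also a receptor of dendritic cells, and 2 of 6 tested markers of dendritic and myeloid cells were higher, Flt3 and Mpeg1. The 8 markers of that list with a row summed to 19.0 to 21.6 CPM in oxPAPC and to 8.07 to 13.0 CPM in control libraries. The most abundant of them, Zbtb46, averaged 11.5 CPM in oxPAPC and 8.69 CPM in control libraries and did not pass (edgeR adjusted p = 0.182). The part of such cells in the result was not tested.

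Tnfrsf8, which encodes CD30, was low but clearly apart between groups. It had 2.31, 2.12, 3.57 and 3.20 CPM in oxPAPC libraries, against 0.399, 0.830, 0.868 and 0.966 CPM in control libraries, from 31 to 81 counts and 6 to 21 counts. The log2 fold change was 1.85 ± 0.32 (SE, edgeR adjusted p = 0.00189), the highest among the tested members. Its neighbour at 20.3 kb on chromosome 4, Tnfrsf1b, had a log2 fold change of -0.40, as given above. Tnfsf8, the CD30 ligand gene, was better measured, with 57.5, 56.9, 57.1 and 78.6 CPM in oxPAPC libraries, against 37.3, 30.3, 48.2 and 28.7 CPM in control libraries. Every oxPAPC library was above every control library (log2 fold change 0.79 ± 0.18, SE, edgeR adjusted p = 0.0105).

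Tnfrsf9 was the most abundant member per length and was higher still with oxPAPC. CD137 is induced on T cells by stimulation of the antigen receptor. On chromosome 4 between positions 150914562 and 150946102, it had 1272, 1108, 1018 and 916 CPM in oxPAPC libraries, against 767, 735, 521 and 653 CPM in control libraries. The groups did not overlap, with an SD of 151 CPM in oxPAPC and 110 CPM in control libraries. The log2 fold change was 0.69 ± 0.19 (SE, edgeR adjusted p = 0.0309), and the call was lost with any of 5 libraries left out (adjusted p up to 0.0986). Tnfsf9, the CD137 ligand gene, is usually described on antigen-presenting cells. It had 4.70, 4.43, 4.99 and 5.33 CPM in oxPAPC libraries, against 2.53, 2.87, 2.33 and 2.35 CPM in control libraries, with narrow groups that did not overlap (log2 fold change 0.96 ± 0.21, SE, edgeR adjusted p = 0.00784). An opposite-strand gene, Gm11110, shares 14.9% of the exon bases of Tnfsf9, and no source used here says if strand was used in counting.

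The windows of Tnfrsf8 and Tnfrsf9 are shown because they were the only ones, among the 10 higher members with a window, that held the NF-kB consensus, and both also held TGANTCA.
Tnfrsf8, chr4:145315115-145315414, minus strand: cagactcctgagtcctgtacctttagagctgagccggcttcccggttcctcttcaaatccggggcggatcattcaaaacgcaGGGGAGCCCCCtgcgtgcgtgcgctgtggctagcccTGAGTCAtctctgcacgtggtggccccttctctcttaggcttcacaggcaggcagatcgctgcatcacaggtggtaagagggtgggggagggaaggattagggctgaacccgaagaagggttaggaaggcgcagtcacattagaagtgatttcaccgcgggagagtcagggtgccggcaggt
Tnfrsf9, chr4:150927749-150928048, plus strand: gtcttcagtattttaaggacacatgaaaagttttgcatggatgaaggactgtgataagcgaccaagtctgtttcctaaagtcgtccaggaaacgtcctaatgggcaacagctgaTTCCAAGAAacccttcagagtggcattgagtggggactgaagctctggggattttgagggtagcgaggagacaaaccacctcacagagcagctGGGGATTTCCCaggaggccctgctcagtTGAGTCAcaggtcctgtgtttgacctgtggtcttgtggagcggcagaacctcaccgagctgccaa
In the Tnfrsf9 window, which belongs to one of its 2 listed starts, overlapping matches to the NF-kB consensus begin at positions -43 and -42, TGANTCA at -15 and TTCNNNGAA at -136. The Tnfrsf8 window has overlapping NF-kB matches at -168 and -167 and TGANTCA at -132. Among the 19 members with a window that were tested and not called, 3 held the NF-kB consensus (Ltb, Tnfrsf25 and Traf3) and 2 TGANTCA.

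OX40 was higher, and GITR, encoded 9.6 kb away, did not pass. Tnfrsf4, on chromosome 4 between positions 156013843 and 156016612, had 313, 287, 349.5 and 315 CPM in oxPAPC libraries, against 216, 210.2, 188 and 209 CPM in control libraries. The groups did not overlap and each was narrow (log2 fold change 0.62 ± 0.15, SE, edgeR adjusted p = 0.0125). Tnfrsf18 had 355, 329.7, 362 and 331 CPM in oxPAPC libraries, against 296, 277, 224 and 277 CPM in control libraries. Its groups did not overlap either, but the difference of 0.36 ± 0.15 on the log2 scale (SE) did not pass (edgeR adjusted p = 0.144), and 27.2% of its exon bases are shared with the opposite-strand gene Gm16008. Tnfsf4, the OX40 ligand gene, had 4.16 to 5.09 CPM in oxPAPC and 3.04 to 4.46 CPM in control libraries (edgeR adjusted p = 0.56).

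Cd40 was higher, with 23.3, 21.8, 21.2 and 24.3 CPM in oxPAPC libraries, against 16.6, 11.3, 15.03 and 13.1 CPM in control libraries. CD40 is best known as the receptor through which T cells activate B cells and dendritic cells. The log2 fold change was 0.69 ± 0.15 (SE, edgeR adjusted p = 0.00752), with no overlap between groups. The B cell markers Ms4a1 and Pax5 were also higher. Ms4a1, which encodes CD20, averaged 1.61 ± 0.581 CPM in oxPAPC and 0.459 ± 0.254 CPM in control libraries (SD, n = 4 each; edgeR adjusted p = 0.0168). Pax5, the B lineage factor, averaged 3.26 ± 0.646 CPM in oxPAPC and 0.714 ± 0.281 CPM in control libraries (SD, n = 4 each; edgeR adjusted p = 0.000715). Cd79a, the B cell receptor subunit, averaged 4.23 CPM in oxPAPC and 4.03 CPM in control libraries and did not pass. Its partner Cd79b was lower in every oxPAPC library than in any control library, averaging 3.65 ± 0.587 CPM in oxPAPC and 5.46 ± 1.00 CPM in control libraries (SD, n = 4 each), a difference of -0.58 on the log2 scale that did not pass (edgeR adjusted p = 0.0983). Cd22, a B cell coreceptor, had a log2 difference of 0.49 and did not pass (edgeR adjusted p = 0.432). The part of these cells in the level of Cd40 was not tested. Cd40lg, the partner made by activated T cells, had 9.39 to 21.6 CPM in oxPAPC and 9.91 to 16.3 CPM in control libraries, a difference of 0.31 on the log2 scale that did not pass (edgeR adjusted p = 0.491).

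The receptors of BAFF did not pass. Tnfrsf13c, the BAFF receptor of B cells, had 4.92 to 6.61 CPM in oxPAPC and 3.15 to 4.38 CPM in control libraries, without overlap (log2 fold change 0.57, edgeR adjusted p = 0.0803). It passed with DESeq2 (adjusted p = 0.043) and in the authors' deposited table (0.0415). Tnfrsf13b, which encodes TACI, was far higher, with 67.1, 61.0, 94.8 and 85.8 CPM in oxPAPC libraries, against 82.1, 88.7, 89.5 and 106 CPM in control libraries. The groups overlapped, and the log2 fold change was -0.25 ± 0.16 (SE, edgeR adjusted p = 0.36). Tnfsf13b, the BAFF gene, had 8 to 27 counts in a library.

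Cd70 and Tnfsf14 (LIGHT) follow Tnfsf9 along chromosome 17, with gaps of 38.2 and 39.7 kb. Their log2 fold changes were 0.86 ± 0.33 and 0.74 ± 0.27 (SE), beside 0.96 for Tnfsf9, but neither passed (edgeR adjusted p of 0.105 and 0.0885). Both were low, Cd70 at 1.83 to 3.81 CPM in oxPAPC and 0.731 to 1.86 CPM in control libraries, and Tnfsf14 at 3.31 to 6.53 CPM in oxPAPC and 2.33 to 3.91 CPM in control libraries. Cd27, the receptor of CD70 on resting T cells, had 30.7 to 39.4 CPM in oxPAPC libraries, all below the 40.2 to 46.9 CPM of control libraries. The difference of -0.34 ± 0.13 on the log2 scale (SE) did not pass (edgeR adjusted p = 0.115), although it did when genes averaging under 5 CPM were left out (adjusted p = 0.0459). Tnfrsf14 (HVEM) had 22.2 to 26.5 CPM in oxPAPC and 20.1 to 29.1 CPM in control libraries, with a log2 fold change of 0.05 ± 0.15 (SE). Tnfrsf12a, the receptor Fn14, had 8.43 to 10.3 CPM in oxPAPC and 4.94 to 8.85 CPM in control libraries (edgeR adjusted p = 0.264).

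Among receptors, levels per length spanned more than 3 orders of magnitude, and the same 3 genes led in both groups. In oxPAPC libraries Tnfrsf9 stood at 396 ± 55.6, Tnfrsf4 at 232 ± 18.7 and Tnfrsf18 at 226 ± 10.8 CPM per kb of exon (SD, n = 4). In control libraries Tnfrsf9 stood at 246 ± 40.3, Tnfrsf18 at 176 ± 20.4 and Tnfrsf4 at 151 ± 8.94 CPM per kb (SD, n = 4). Tnfrsf4 and Tnfrsf18 thus lay within each other's spread in oxPAPC libraries. The next receptor, Tnfrsf1b, was at 35.6 ± 7.98 CPM per kb in oxPAPC and 46.9 ± 8.90 CPM per kb in control libraries. Among ligands, Lta led in oxPAPC libraries with 143 ± 47.8 CPM per kb, ahead of Ltb with 104 ± 23.4, spreads that overlap. In control libraries Ltb led with 71.1 ± 16.6 CPM per kb, and Lta followed with 42.2 ± 10.4.

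**Figure D4:**
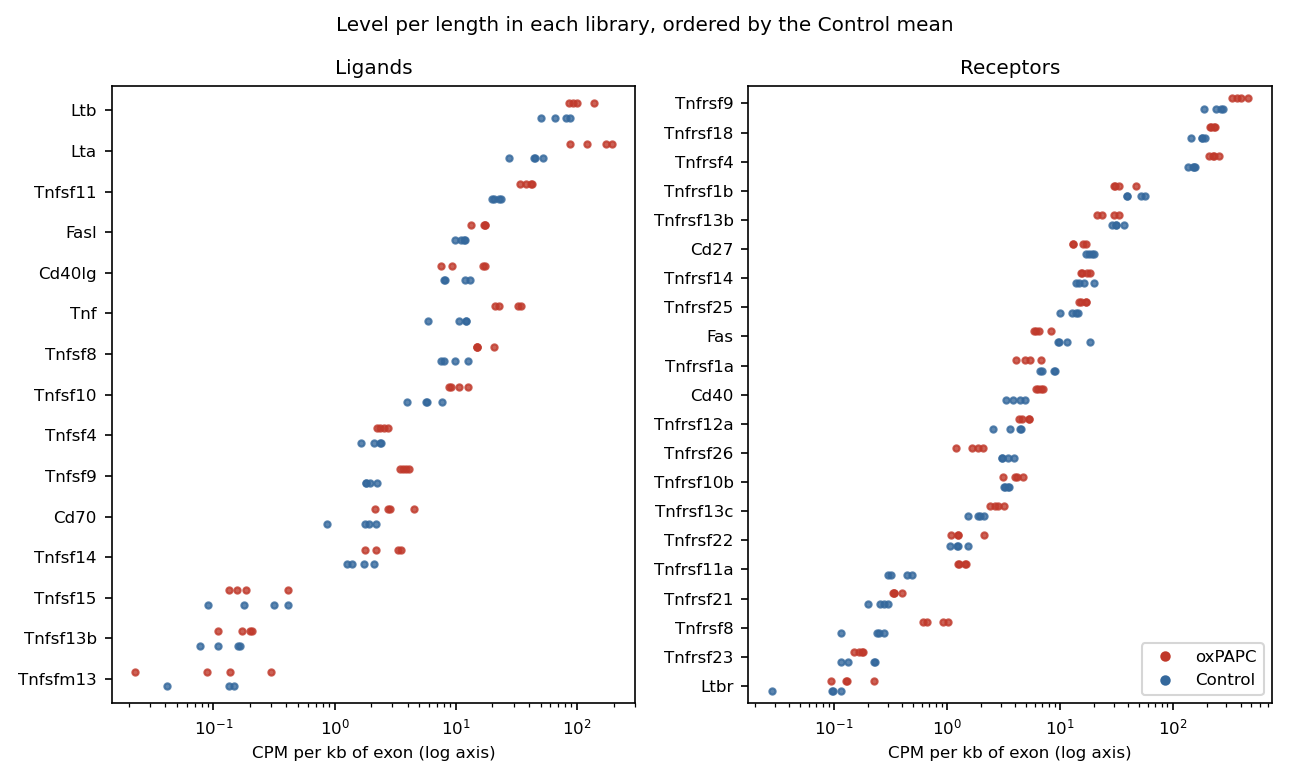
Level of 15 ligand genes and 21 receptor genes in each library, in CPM per kb of exon on a log axis, ordered by the control mean, with oxPAPC libraries in red above control libraries in blue. Values of 0 are not drawn. Tnfrsf9, Tnfrsf18 and Tnfrsf4 lead the receptors, and the points of Lta and Tnf separate by group among the ligands.

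None of the 5 TRAF adaptors passed. Traf1, itself a target of NF-kB, had 140.5, 139, 169 and 166 CPM in oxPAPC libraries, against 119.9, 138, 132 and 134 CPM in control libraries. Traf6, which also serves the interleukin 1 receptor family, had 132, 149, 159 and 139 CPM in oxPAPC libraries, against 117, 119, 128 and 133 CPM in control libraries. Their log2 fold changes were 0.23 ± 0.14 and 0.22 ± 0.13 (SE, edgeR adjusted p of 0.311 and 0.322). Traf3, a brake on the noncanonical NF-kB pathway, and Traf2 had log2 fold changes of 0.19 and 0.02. Traf5 was lower in every oxPAPC library, at 20.002 to 21.8 CPM in oxPAPC and 22.5 to 26.3 CPM in control libraries, a difference of -0.20 on the log2 scale that did not pass (edgeR adjusted p = 0.334).

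Lists of genes that act with the receptors were counted next. Of 30 tested genes of receptor-proximal signalling, 2 were higher and none lower, a share near that of all tested genes, and their median log2 fold change was 0.09. Mlkl, which encodes the effector of necroptosis, averaged 6.87 ± 1.47 CPM in oxPAPC and 0.898 ± 0.148 CPM in control libraries (SD, n = 4 each; log2 fold change 2.93 ± 0.26, SE, edgeR adjusted p = 1.27e-05). Ripk1, a kinase of the TNFR1 complex, rose by 0.52 (edgeR adjusted p = 0.0484), and Ube2n and Daxx had 0.51 and 0.52 and did not pass. Of 12 genes of ubiquitin editing, Tnip2 alone was higher and none lower, 1 of 12 against 6.75% of all tested genes. Tnip2 had a log2 fold change of 0.40 (edgeR adjusted p = 0.0491), with Spata2, Otulin and Cyld at 0.32, 0.35 and -0.28. The calls of Ripk1 and Tnip2 lay close to the threshold. Genes of these lists were not examined under other scaling, filters or tools, or with libraries left out.

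Of 11 NF-kB subunits and inhibitors, 2 were higher and none lower, where all tested genes give 6.75% and 6.52%. The 2 were the inhibitor genes Nfkbib and Nfkbie, with log2 fold changes of 0.74 and 0.62 (edgeR adjusted p of 0.0228 and 0.0324). Nfkbid and Nfkb2 had 0.48 and 0.65 and did not pass (0.0721 and 0.0784). Among 8 tested genes of surface cleavage, 1 was higher and none lower, beside the same 6.75% and 6.52%. Sppl2b, an intramembrane protease that cleaves the TNF stub, was higher, with 13.7 ± 2.27 CPM in oxPAPC and 6.43 ± 1.95 CPM in control libraries (SD, n = 4 each; log2 fold change 1.08, edgeR adjusted p = 0.0045). Furin, Erap1 and Rhbdf1 had log2 fold changes of 0.50, 0.36 and 0.46 and did not pass. Adam17, the main protease that sheds TNF, had a log2 fold change of 0.10 (edgeR adjusted p = 0.673).

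**Figure D5:**
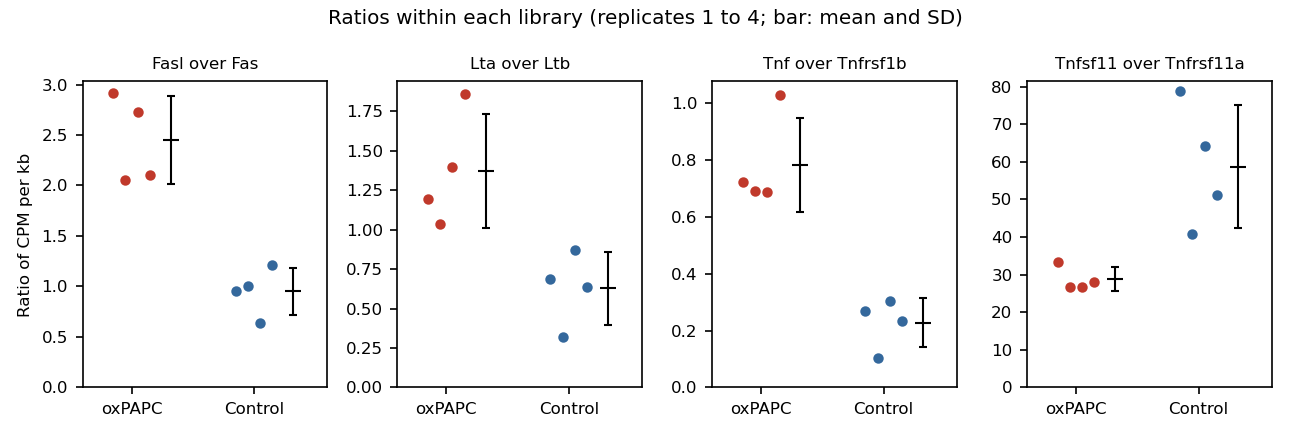
Ratio of the levels per length of 2 members within each library, with 4 oxPAPC libraries in red at left and 4 control libraries in blue at right, and the mean and SD as a black bar. Fasl over Fas averaged 2.45 ± 0.436 in oxPAPC and 0.952 ± 0.235 in control libraries; the groups do not overlap in these 4 panels, and 2 further ratios that were computed are not drawn.

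The groups overlapped in the 2 ratios not drawn. Tnfrsf1b stood at 6.11 to 7.61 times the level per length of Tnfrsf1a in oxPAPC libraries and at 5.69 to 6.20 times in control libraries. Tnfrsf9 stood at 81.5 to 128 times that of Tnfsf9 in oxPAPC libraries and at 106 to 144 times in control libraries.

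The authors' deposited table was made with DESeq2. At an adjusted p under 0.05 the authors' deposited table lists 13 members as higher and 1 as lower. Of all genes with an adjusted p there, 7.88% are higher and 6.55% lower. Of the 15 members called by edgeR, 13 are also under the threshold there. Tnfrsf1a is not (adjusted p = 0.0601), and Fas has no adjusted p there.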

How the data were processed

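Per the submitters' processing notes, reads were handled with STAR 2.7.8a, featureCounts 2.0.2 and DESeq2 1.30.1 on GRCm38.p6. Per the labels' protocols, libraries were made from total RNA with poly(A) selection. The authors deposited whole-number counts per gene for each of 8 libraries, not normalized, with their own DESeq2 log2 fold changes, fold changes (ratio), Wald statistics (a score), p-values and mean normalized counts (a signal), per the file headers. No gene is listed with fewer than 2 libraries at 5 counts or more.

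Counts were filtered with filterByExpr and scaled by TMM. The test was edgeR 4.0.16 (glmQLFTest, R 4.3.3), over all tested genes, with an SE obtained by dividing the absolute log2 fold change by √F. Levels per length use exon lengths of GENCODE M21, whose coordinates equal those of all 41 members. Of the members, 33 had a promoter window. Alternatives were RLE and library size scaling, no filter, a filter at 5 CPM, DESeq2 1.42.0, limma-voom (limma 3.58.1), a replicate block and each library left out. The edgeR, DESeq2 and limma-voom fits were tested on simulated data. These were drawn as independent libraries with the spread that edgeR had fitted for each gene. They therefore cannot show whether the fits hold for the libraries used here. Members, gene lists and ratios were chosen with earlier results of these data known. All members are named; those past the threshold, and the 6 most abundant others, are given by library, and of each pathway list the 4 genes with the smallest adjusted p. Adam17, Foxp3 and Cd79a were added after their values were seen. One B cell marker is not reported here, nor the count and sum of that marker list.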

Additional observations from a re-analysis of the deposited data

Results flagged for a closer look

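Each member was searched, in either treatment, for a library standing well apart from its 3 replicates. The rule compared the gap with the range of the values and set no minimum in CPM or counts. Of the 82 sets of values 6 held one, all in oxPAPC, where chance alone gives about 1 in 20, or 4. Tnfrsf22 had 9.002 CPM in oxPAPC replicate 3, against 4.63 to 5.33 CPM in the others, and without that library its log2 fold change was -0.09. Traf2 had 50.1 CPM in oxPAPC replicate 3, against 38.2 to 38.9 CPM. Tnfsf8, a called member, had 78.6 CPM in oxPAPC replicate 4, against 56.9 to 57.5 CPM. Fasl, also called, had 26.05 CPM in oxPAPC replicate 2, against 32.8 to 33.9 CPM. Tnfrsf21 had 1.64 CPM in oxPAPC replicate 1, from 22 counts, against 1.37 to 1.41 CPM, from 21 to 32 counts. Traf5 had 20.002 CPM in oxPAPC replicate 1, against 21.6 to 21.8 CPM.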

How the results depend on the processing

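Of the 15 called members, 11 kept their direction and their side of the threshold under every alternative that tested them: Lta, Tnf, Tnfsf8, Tnfsf9, Tnfsf10, Tnfsf11, Tnfrsf4, Tnfrsf8, Tnfrsf11a, Tnfrsf26 and Cd40. The 5 CPM filter left Tnfrsf8 and Tnfsf9 untested. With library size scaling the median over all genes was 0.12 (log2), against -0.01 with TMM, and there were 458 lower genes (71.6% of calls higher, against 50.9%) and 1 lower member. The replicate block gave 1453 genes, 708 of them lower, against 2182 and 1072 without it, and among members it lost Tnfrsf1a (adjusted p = 0.0782). After subtraction of group means, libraries sharing a replicate number correlated at 0.32, -0.053, -0.37 and -0.035. Libraries of unlike number were not compared, so these values cannot settle whether libraries were paired. The main fit treated them as unpaired. Leaving out one library gave 1390 to 2134 genes (710 to 1057 higher, 680 to 1144 lower) and 10 to 12 higher and 2 to 4 lower members. The lowest gene counts came from omitting control replicate 2, while omitting oxPAPC replicate 4 left 694 lower genes, both with fewer samples. The sign of Tnfrsf23 turned with library size scaling (0.091) and limma-voom (0.013). With a library left out, log2 fold changes ranged across 0 for Tnfrsf14 (-0.025 to 0.16), Tnfrsf22 (-0.088 to 0.28), Tnfrsf23 (-0.23 to 0.13), Tnfsf15 (-0.68 to 0.15) and Traf2 (-0.080 to 0.14), none of them called. The cause of these shifts was not tested. Ltbr and Tnfsfm13 were tested without the filter and with DESeq2 and did not pass; the authors' deposited table gives them adjusted p of 0.561 and 0.617.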
